A study of Homo sapiens with 6 samples.

Results

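The genes described here encode the machinery that copies DNA in S phase, the enzymes that supply its deoxynucleotides, and a few regulators of S phase entry. The list was written by symbol as 44 genes, all 44 were found among the 25987 named genes of the deposited table, and all 44 passed the filter on low counts, so no member was left out of a test. RNA had been sequenced from 6 samples of 786-O, labelled wild type. The line comes from a human clear cell renal carcinoma and carries no working VHL tumour suppressor. The 3 samples of the copper group came from cells adapted to copper sulfate that was first bound to serum proteins. The dose was 30 uM in the series text and 30, 31 and 32 uM in the labels of replicates 1, 2 and 3, which were treated as 1 group. The 3 control samples came from cells that received serum handled in the same way without copper. The labels do not say whether the samples of a group are cultures grown independently. Both groups are thus one tumour line without VHL function, and the length of the adaptation is not given in the sources used here. The question of the design was how lasting copper exposure changes the RNA of these cells.

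Before S phase, the origin recognition complex, CDC6 and CDT1 load the ring-shaped MCM helicase onto DNA, a step called licensing. At the start of S phase MCM10, CDC45 and the GINS complex turn the loaded ring into an active helicase, and polymerase alpha with primase, polymerase delta and polymerase epsilon then copy both strands with the help of the PCNA clamp. Most of these genes are transcribed in waves under E2F factors, which cyclin E and its kinase release from the RB protein, so in a growing culture their RNA is commonly read as a sign of cycling cells. In bulk RNA a smaller share of cells in S phase and less RNA per such cell cannot be told apart.

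The promoters are shown first because their sequence does not come from these counts. As most of these genes are known to be transcribed under E2F factors, a high share of E2F matches can follow from the choice of members. Promoters from RefSeq, on the GRCh38.p14 build, matched 37 of the 44 genes. The 250 bases before each start were searched on both strands for the 4 forms TTTCGCGC, TTTGGCGC, TTTCCCGC and TTTGCCGC, which are common spellings of the E2F element. At least 1 match was found in 14 of the 37 promoters (37.8%), against 4.51% of the 10299 promoters of tested genes and 2.79% of all 27305. More than 1 match was found in 3 of the 37 (8.11%), against 0.233% of promoters of tested genes. CCAAT, the NF-Y element, was found in 22 of the 37 (59.5%), against 35.4% of promoters of tested genes. Stretches from 7 of the promoters follow, on the strand of the gene, with matches to the E2F forms on either strand in capitals.
MCM6, chr2:135876514-135876603, minus strand: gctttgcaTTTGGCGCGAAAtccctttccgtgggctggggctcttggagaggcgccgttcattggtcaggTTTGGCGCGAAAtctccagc
MCM7, chr7:100101398-100101425, minus strand: ggtcacgtggggggcgacgTTTCGCGCc
POLA2, chr11:65261899-65261926, plus strand: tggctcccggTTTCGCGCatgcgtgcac
PCNA, chr20:5126663-5126712, minus strand: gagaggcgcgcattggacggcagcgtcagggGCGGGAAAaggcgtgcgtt
TYMS, chr18:657604-657631, plus strand: cgggacggccGCGGGAAAaggcgcgcgg
E2F1, chr20:33686398-33686425, minus strand: ctctttcGCGGCAAAaaggaTTTGGCGC
UHRF1, chr19:4909473-4909500, plus strand: aatgccgagttttcGCGGGAAAaaaatc
In MCM6 each run of capitals holds 2 overlapping matches, 1 on each strand, and the pattern occurs at 2 places, which made it the promoter with the most matches (4). In E2F1, the gene of the factor itself, 2 matches ended 26 and 13 bases before the RefSeq start. The matches are letters only and no binding was measured. The median log2 fold change, copper over control, was 0.01 for the 14 genes with a match and 0.04 for the 23 without.

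All 44 genes were expressed, and their levels per length differed by 41.2 times between the highest and the lowest. Levels between genes are compared as CPM (counts scaled to a total of 1000000 per library) per kilobase of exon, as mean ± SD of the 6 libraries. PCNA, the sliding clamp, was highest at 140 ± 13.2, followed by the thymidine salvage kinase TK1 at 132 ± 16.7, MCM4 at 124 ± 8.57, MCM7 at 119 ± 9.92 and RRM2, the small subunit of ribonucleotide reductase, at 117 ± 10.6. The spreads of these 5 overlapped. The lowest were GINS4 at 3.39 ± 0.515, POLA2, the accessory subunit of polymerase alpha, at 3.79 ± 0.57 and cyclin E1 (CCNE1) at 4.11 ± 1.04. The order depends on the length used: per kilobase of the longest coding transcript, chosen as an alternative after seeing the data, POLA2 was lowest at 3.79, then CCNE1 at 4.19 and GINS4 at 4.78, while PCNA remained highest at 151 and MCM7 came next at 141.

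Subunits of one complex were not at equal RNA levels. The 6 subunits of the MCM ring, which hold 1 place each, fell into 3 steps: MCM4 and MCM7 at the levels above, then MCM3 (59.7 ± 3.32), MCM6 (57.9 ± 4.1) and MCM5 (56.7 ± 3.49), and then MCM2 (36 ± 2.86) CPM per kilobase. The highest was 3.44 times the lowest. In the GINS complex the ratio was 7.96, from GINS2 at 27 ± 2.74 to GINS4 (5.65 per transcript length), and in the RFC clamp loader it was 3.58, from RFC4 at 61.7 ± 4.4 to RFC3 at 17.2 ± 1.99 CPM per kilobase. The 3 subunits of RPA, which coats single-stranded DNA, were close to one another, with a ratio of 1.21. The table's span is more than 1000 bases shorter than that in RefSeq for 10 of the 44: PRIM2, RFC3, RRM2, MCM5, POLD3, RFC5, POLA2, UHRF1, ORC1 and CCNE2. For PRIM2 it is 11559 against 425311 bases. Whether the levels of these genes miss reads was not tested. GINS2, RFC4 and RPA3 each overlap a gene on the opposite strand, with 103% (GSE1), 426% (EIF4A2) and 20.5% (UMAD1) of their counts. GINS2 and RFC4 are the upper ends of the ratios above. Whether reads of the partners were counted for these genes was not tested.

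**Figure D1:**
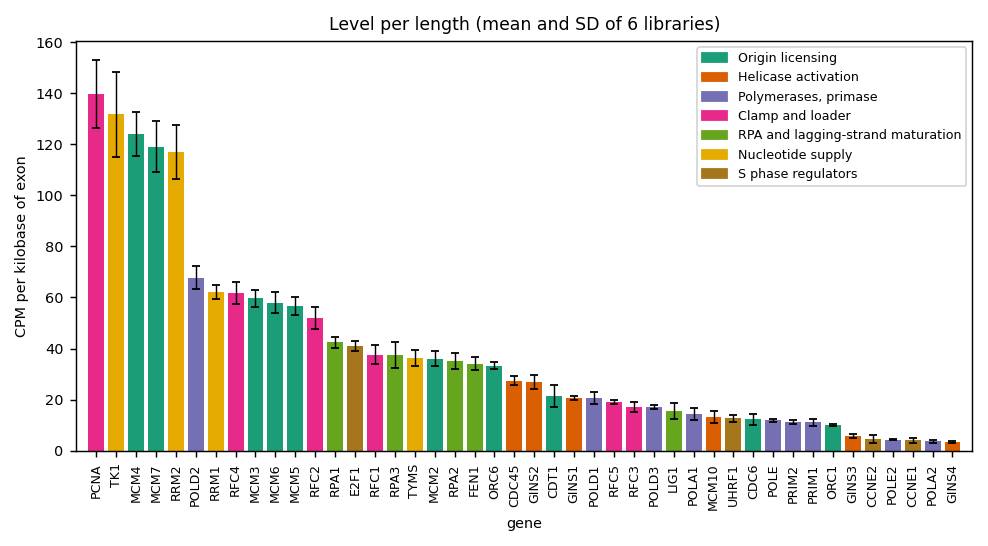
Level of each of the 44 genes as CPM per kilobase of exon (vertical axis), ordered from highest to lowest and coloured by role. Bars are the mean and error bars the SD of all 6 libraries. PCNA, TK1, MCM4, MCM7 and RRM2 lie above 100 and GINS4 is lowest at 3.39 on this scale.

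The libraries held from 16301772 to 25079913 counts, and the 44 genes summed to 5136, 5045 and 5041 CPM in copper replicates 1, 2 and 3 and to 5282, 4966 and 4926 CPM in control. Replicate 3 of both groups stood apart from replicates 1 and 2, as described for these genes further on. As a check of copper exposure, MT2A, a metallothionein, was at 631, 724 and 803 CPM in copper and 328, 349 and 351 in control, a log2 fold change of 1.07 (edgeR adjusted p 0.0843, and 0.00516 with the replicate number as a block). HMOX1, heme oxygenase, was at 64.6, 55.6 and 75.9 CPM in copper and 26.3, 28.5 and 37 in control (1.09, edgeR adjusted p 0.241, and 0.00764 with the block). Of the markers of the line, PAX8 was at 123 CPM or more and EPAS1, which encodes HIF-2 alpha, at 308 CPM or more in each library. The summed level of 5 blood markers was at most 0.336 CPM and that of 3 endothelial markers at most 0.244 CPM.

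No DNA replication gene differed between copper and control past the threshold. With edgeR's quasi-likelihood test, 0 of the 44 were called at an adjusted p under 0.05, 0 had an unadjusted p under 0.05, and each adjusted p was 1.00. Among all 12944 genes tested the called share was 0%, and 3.52% had an unadjusted p under 0.05 (1.59% lower in copper). With the replicate number as a block, 0 of the 44 were called (adjusted p from 0.50 for GINS3 to 1.00), against 0.170% of all genes, and 3 of the 44 had an unadjusted p under 0.05, against 8.41%. Of these, PCNA and GINS3 were higher in copper (4.16% of all genes) and RRM2 lower (4.24%). DESeq2 called 0 of the 44 (0.209% of all genes), with 0 at an unadjusted p under 0.05, and edgeR with no filter on low counts called 0 of the 44 (0.0526%).

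The differences were also small in size. The log2 fold changes ran from -0.25 (CCNE1) to 0.32 (GINS3), and 27 of the 44 lay within 0.1 of 0. Single libraries moved both ends by more than 1.5 times, as given with each gene. The median was 0.03, beside 0.01 over all tested genes, with 27 members above 0 and 17 below (48.6% of all tested genes were below 0). It was 0.00, 0.06 and 0.05 in the differences of replicates 1, 2 and 3. Without control replicate 3 the median was -0.01, so its sign rests on that library. The 95% intervals of all 44 included 0 and lay within a 2-fold change in either direction, and 35 of them lay within 0.5 on the log2 scale. In simulated counts, of 200 genes changed 1.5-fold, the fit without the block recovered 0 and the fit with it 174, the latter with 23 false calls. The simulation gave both groups the same replicate effects, which favours the block. In the data, deviations of same-numbered libraries correlated at 0.46, 0.40 and 0.65 over all tested genes. The median absolute deviation of replicate 3 from the mean of replicates 1 and 2 was 0.33 in copper and 0.17 in control over all tested genes. The simulated setting thus differs from the data, and neither the 0 nor the 174 gives the power of its fit here. The data thus allow shifts of the size of the intervals for each gene and do not show that the levels are equal.

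**Figure D2:**
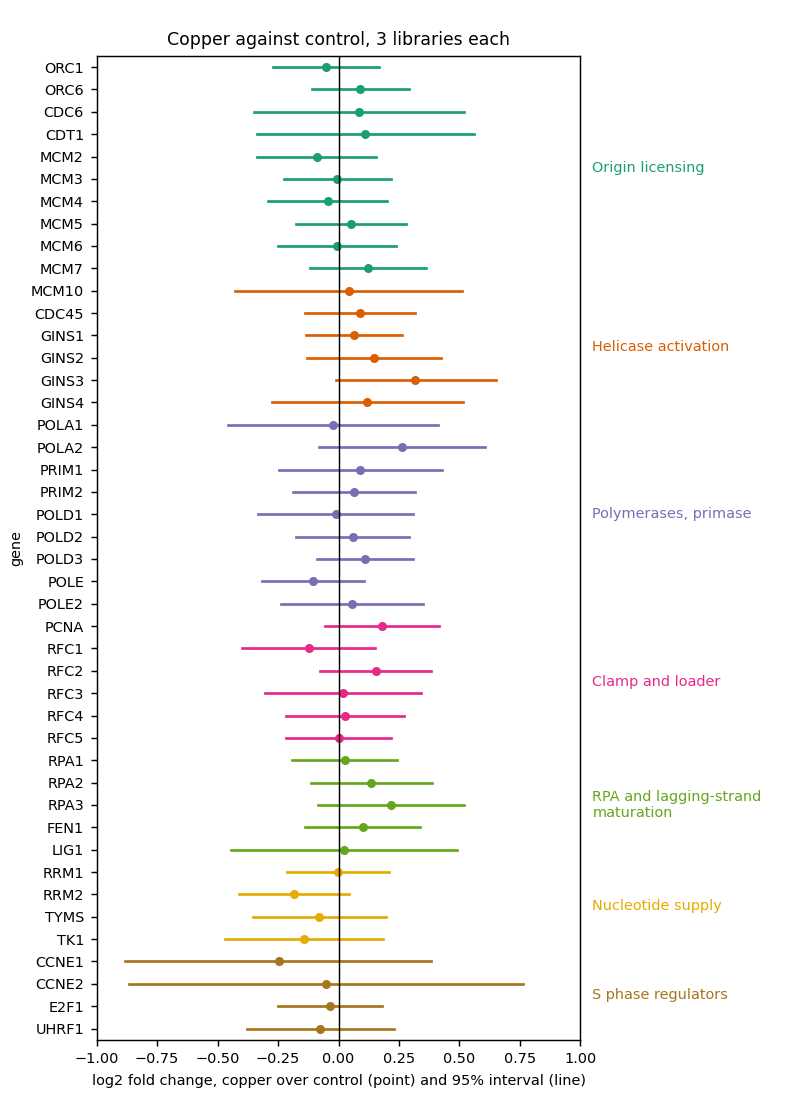
Log2 fold change, copper over control, of each of the 44 genes (points) with its 95% interval (lines), by role. Every interval crosses 0, and the widest belong to CCNE1 and CCNE2.

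The groups did not overlap for 4 members, all higher in copper: GINS3, ORC6, POLD3 and RFC2. That is 9.09% of the 44, beside 10.8% of all tested genes in either direction, 5.45% in the higher and 5.35% in the lower direction. Members higher in copper in all 3 replicate numbers were 15 of the 44, beside 17.7% of all tested genes, and members lower in all 3 were 5 of the 44, beside 17.0%.

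Among the licensing genes 5 of 10 had a positive and 5 a negative log2 fold change, with a median of 0.02. MCM2 (Entrez 4171; chr3:127598411-127622435) was at 132, 133 and 114 CPM in copper and 141, 139 and 123 in control. Its copper values lay below control in each of the 3 numbered replicates, but the groups overlapped, with a log2 fold change of -0.09 (SE 0.11). MCM7 was at 439, 417 and 504 CPM in copper and 433, 403 and 413 in control, with copper replicates 1 and 3 above every control library and copper replicate 2 among them (log2 fold change 0.12, SE 0.10). The other 4 subunits of the ring were between -0.05 and 0.05.

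CDC6, the loader of the ring (Entrez 990; chr17:40287879-40304657), was at 67.1, 69.8 and 47.1 CPM in copper and 66, 60.6 and 46.7 in control. The third library was lowest in both groups, and the groups overlapped. CDT1, its partner in loading, went the other way, at 60.5, 59.6 and 96.2 CPM in copper and 65.3, 62.8 and 72.4 in control. The third library was highest in both groups. In replicates 1 and 2 alone CDT1 had a log2 fold change of -0.09, against 0.11 in all 6 libraries. Of the subunits that recognise origins, ORC6 was at 63.8, 64 and 61.1 CPM in copper and 60.2, 56.9 and 60.3 in control, with no overlap, and ORC1 had a log2 fold change of -0.05.

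The helicase activators all had positive log2 fold changes, from 0.04 for MCM10 to 0.32 for GINS3, with a median of 0.10. GINS3 (Entrez 64785; chr16:58392471-58406147) was at 15.8, 15.3 and 14.5 CPM in copper and 13.4, 13 and 10.1 in control. Every copper library lay above every control library, and the difference of the third number (0.52) was more than those of the first (0.24) and second (0.23). Without control replicate 3 the log2 fold change was 0.20, against 0.32 in all 6 libraries. Its SE was 0.14 and its 95% interval -0.01 to 0.65, and edgeR's adjusted p was 1.00, or 0.50 when the block was added. The other subunits were at 0.06 (GINS1), 0.15 (GINS2) and 0.12 (GINS4), and CDC45 at 0.09, with overlapping groups.

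Of the 9 genes of polymerases and primase, 6 had positive and 3 negative values. POLA2 was at 14.9, 13.9 and 17.8 CPM in copper and 14.4, 11.4 and 12.9 in control, a log2 fold change of 0.26 (SE 0.15). Copper was above control in each replicate number, by 0.05, 0.28 and 0.45, yet the groups overlapped, and the value was 0.15 without copper replicate 3. POLA1, the catalytic subunit of the same enzyme, had a log2 fold change of -0.02. POLE, the catalytic subunit of the leading-strand polymerase, was at 87.4, 86.1 and 96.5 CPM in copper and 95.4, 94.6 and 100 in control, a log2 fold change of -0.10 (SE 0.09). The third copper library alone kept the groups from separating. POLD3, an accessory subunit of polymerase delta, was at 74.1, 73.2 and 72.6 CPM in copper and 71.2, 65.6 and 67.1 in control, without overlap. POLD1, POLD2, POLE2, PRIM1 and PRIM2 lay between -0.01 and 0.09.

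PCNA (Entrez 5111; chr20:5114953-5126622) was at 234, 211 and 209 CPM in copper and 211, 186 and 181 in control. Each copper library lay above the control library of its number, by 0.15, 0.18 and 0.21 on the log2 scale, while copper replicate 3 lay just below control replicate 1, so the groups overlapped. The log2 fold change was 0.18 (SE 0.10, 95% interval -0.06 to 0.42). In the clamp loader, RFC1, its large subunit, was at 178, 199 and 150 CPM in copper and 193, 187 and 194 in control, and RFC2 at 90.3, 92.5 and 103 in copper and 87.8, 79.8 and 89.4 in control. The copper libraries lay on both sides of control for RFC1 (log2 fold change -0.12, SE 0.12) and above control without overlap for RFC2 (0.15, SE 0.10). RFC3, RFC4 and RFC5 were between 0.00 and 0.03.

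All 5 genes of single-strand binding and of lagging-strand maturation had positive values, with a median of 0.10. RPA3 was at 82.4, 74.6 and 102 CPM in copper and 77.4, 71.2 and 74.2 in control. Copper replicates 1 and 3 lay above every control library and replicate 2 among them, for a log2 fold change of 0.22 and an SE of 0.13. Without copper replicate 3 it was 0.08. The values were 0.03 for RPA1, 0.14 for RPA2, 0.10 for FEN1, the nuclease that trims Okazaki fragments, and 0.02 for LIG1, the ligase that joins them.

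The 4 genes of nucleotide supply all had negative values, with a median of -0.11. RRM2 (Entrez 6241; chr2:10122568-10131419), whose protein limits the making of deoxynucleotides, was at 415, 405 and 446 CPM in copper and 495, 440 and 504 in control. Copper was below control in each replicate number, by -0.26, -0.12 and -0.18, and the ranges crossed only between copper replicate 3 and control replicate 2. The log2 fold change was -0.19 (SE 0.10, 95% interval -0.41 to 0.04). TK1 was at 213, 178 and 257 CPM in copper and 251, 231 and 234 in control. It was lower in copper in replicates 1 and 2 and higher in replicate 3, with a log2 fold change of -0.14 (SE 0.14) in all 6 libraries. That value was -0.03 without copper replicate 2 and -0.29 without copper replicate 3. The catalytic subunit RRM1 was at -0.00 and thymidylate synthase (TYMS), which makes dTMP, at -0.08.

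PCNA, RRM2 and TK1 were the members that 1 setting called. In the blocked fit without replicate 3, edgeR gave adjusted p-values of 0.0154 for PCNA (log2 fold change 0.17), 0.00670 for RRM2 (-0.19) and 0.000168 for TK1 (-0.31). That fit rests on 2 libraries a group and called 912 genes, 7.03% of those tested, beside 3 of the 44 (6.82%). In replicates 1 and 2 without the block, where 111 genes (0.856%) were called, 0 of the 44 were, and the adjusted p-values of the 3 genes were 0.388, 0.258 and 0.168.

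The 4 regulators also had negative values, with a median of -0.06. CCNE1 (Entrez 898; chr19:29811991-29824312), the cyclin that drives S phase entry with CDK2, was at 9.39, 8.97 and 5.13 CPM in copper and 10.4, 10.6 and 6.81 in control. It was below control in each replicate number, by -0.15, -0.24 and -0.40, but control replicate 3 lay below copper replicates 1 and 2, so the groups overlapped (log2 fold change -0.25, SE 0.27, 95% interval -0.88 to 0.38). That value rested on the third libraries: it was -0.02 without copper replicate 3 and -0.42 without control replicate 3. Its relative CCNE2 was at 18.7, 20.4 and 8.2 CPM in copper and 20.2, 17.4 and 11.3 in control, again lowest in the third library of each group. E2F1 was at 104, 97.2 and 103 CPM in copper and 108, 108 and 96 in control, with a log2 fold change of -0.03 (SE 0.09). UHRF1, which carries DNA methylation through replication, was at 68.9, 69.9 and 52.7 CPM in copper and 67.6, 71.1 and 63 in control (-0.07, SE 0.13).

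**Figure D3:**
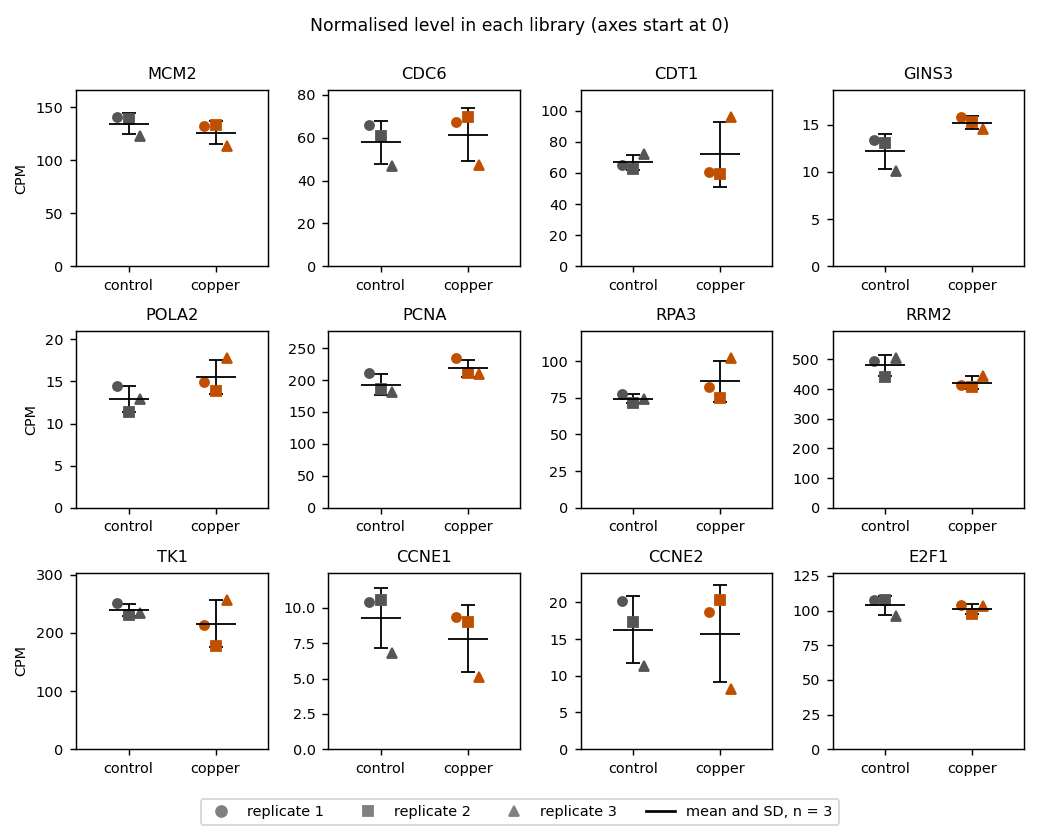
CPM of 12 of the genes in each library (vertical axes from 0), with control in grey and copper in orange, a marker shape for each replicate number, and the mean and SD of 3 libraries as bars. GINS3 separates the groups, while the third library is lowest in both groups for CDC6, CCNE1 and CCNE2 and highest in both for CDT1.

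The third library of each group stood apart, for most members in the same direction. Its deviation from the mean of replicates 1 and 2 had the same sign in both groups for 33 of the 44. Across the 44, the deviation of a library from its group mean correlated between the copper and control library of the same number at r = 0.72, 0.66 and 0.79 for numbers 1, 2 and 3, as a description over genes that share the same libraries. Over all tested genes same-numbered libraries correlated at 0.46, 0.40 and 0.65, but copper replicate 1 with control replicate 2 also reached 0.32 and copper replicate 2 with control replicate 1 reached 0.27. Replicate 3 was lowest of its group for 24 of the 44 members in copper, beside 44.7% of all tested genes, and for 23 of the 44 in control, beside 40.3%. It was highest for 15 of the 44 in copper, beside 44.3%, and for 13 of the 44 in control, beside 42.1%. It was lowest in both groups for 18 members (40.9%), beside 29.5% of all tested genes, and highest in both for 9 (20.5%), beside 30.0%. CCNE2 lay 1.24 below the mean of replicates 1 and 2 in copper and 0.73 below it in control, on the log2 scale, and CCNE1 lay 0.83 and 0.62 below it. MCM10, POLA1, CDC6 and GINS4 were also lower there in both groups, by 0.65, 0.63, 0.54 and 0.46 in copper. LIG1 was 0.57 and 0.47 higher in copper and control, POLD1 0.39 and 0.23, and CDT1 0.68 and 0.18. The deviation was larger in copper than in control for 32 of the 44. This was not particular to these genes. The median absolute deviation was 0.22 in copper and 0.13 in control over the 44, beside 0.33 and 0.17 over all tested genes.

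GC content of the transcript moved with this pattern. Over the 44 genes the deviation of replicate 3 correlated with GC content at r = 0.56 in copper and 0.23 in control, close to 0.54 and 0.20 over 12439 tested genes with a transcript in GENCODE 29. CCNE2 had the lowest GC content of the 44, 36.9%, and CDT1 and POLD1 the highest, 64.9% and 65%. The copper minus control difference correlated with GC content at 0.41 in replicate 3 and at -0.56 in the mean of replicates 1 and 2, beside 0.46 and -0.20 over the 12439 genes. These are descriptions across genes, which are not independent, and the part of GC content in the differences above was not tested.

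**Figure D4:**
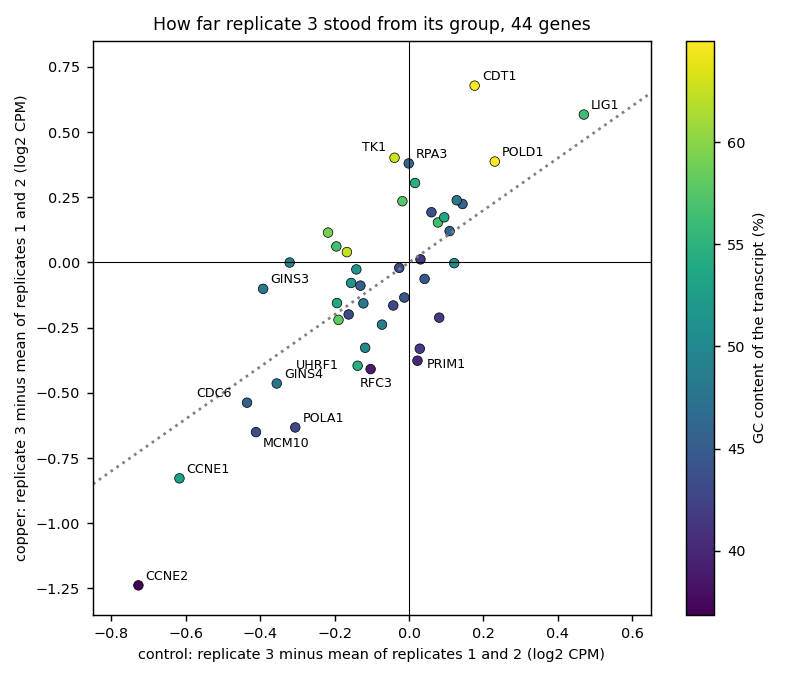
Log2 CPM of replicate 3 minus the mean of replicates 1 and 2, in control (horizontal) and copper (vertical), for the 44 genes, coloured by GC content of the transcript. The dotted line marks equal deviation. CCNE2 and CCNE1 lie far below 0 in both groups and LIG1 and CDT1 above it.

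**Figure D5:**
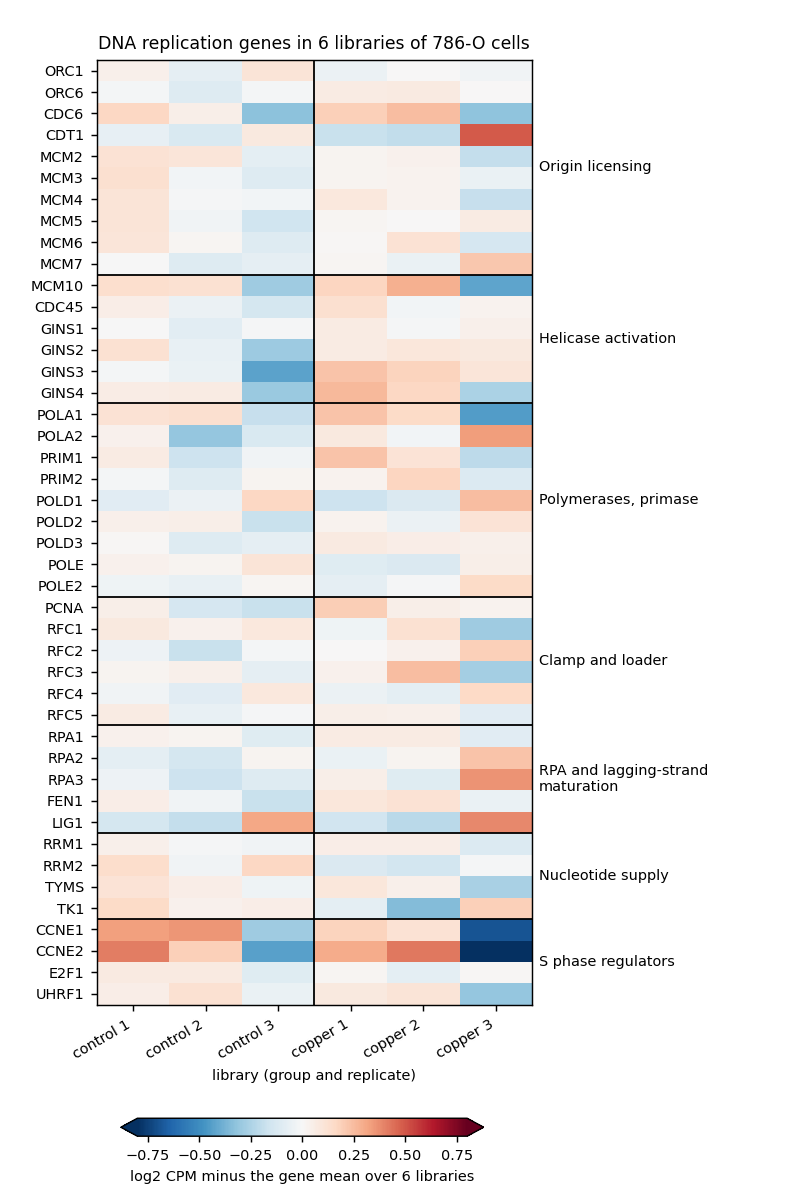
Log2 CPM of the 44 genes in each of the 6 libraries, minus the mean of the gene, by role. The third column of each group departs most, and more so in copper, while few rows divide control from copper.

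The wider pathway gave no calls either. Of 42 other replication factors 41 were tested and 0 were called without or with the block. Their median was 0.02, with 23 above and 18 below 0, and 5 of the 41 did not overlap, 2 higher and 3 lower, beside 10.8% of all tested genes in either direction. ASF1A, a histone chaperone, had the most positive value (0.24, SE 0.21) and TICRR, which helps to load CDC45, the most negative (-0.30, SE 0.11). TICRR was at 26.5, 26.9 and 28 CPM in copper and 31.6, 30.4 and 38 in control, without overlap, and edgeR's adjusted p was 1.00, or 0.469 when the replicate number was a block. Of 12 other genes of the E2F and RB family 0 were called and 9 had negative values, from -0.28 (E2F8, a repressor) to 0.08 (E2F4). The family's median was 0.002, 0.03 and -0.33 in the differences of replicates 1, 2 and 3, so the negative lean came from replicate 3. Of 13 genes of the S phase checkpoint tested, 0 were called and 9 had negative values, from -0.24 (FBXO5, an inhibitor of the anaphase-promoting complex) to 0.12 (CDC25A, a phosphatase that activates CDK2). Their median was -0.01, 0.04 and -0.18 in the differences of replicates 1, 2 and 3.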

How the data were processed

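The deposited data are raw read counts per gene in 6 libraries (3 copper, 3 control), from a directional library kit per the labels' protocols. The submitters' processing notes name STAR, edgeR and GRCh38 without saying what each did. The counting program, its use of strand and the annotation are not given in the sources used here. Starts in the table count from 0, and 1 was added. Rows without a symbol (5, 0.000814% of counts) were left out.

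The main test was edgeR's quasi-likelihood test (edgeR 4.0.16 on R 4.3.3), fitted robustly to copper against control after filterByExpr (minimum count 10, minimum total 15) and TMM scaling. P-values were adjusted by Benjamini-Hochberg over 12944 genes, and a gene was called below 0.05. The prior count behind log2 fold changes was 2. The SE is the fitted log2 change divided by the square root of its F, and the 95% interval uses its degrees of freedom. DESeq2 1.42.0, limma 3.58.1 (voom), other scalings and filters, thinning and left-out libraries were alternatives. Replicate numbers are shared by the groups in the labels. Deviations of same-numbered libraries correlated at 0.46, 0.40 and 0.65 over all tested genes, above the minimum of 0.1, so a fit with the replicate number as a block is given where it changes a result. Copper replicate 1 with control replicate 2 (0.32) and copper replicate 2 with control replicate 1 (0.27) also passed that minimum. The check therefore does not show that libraries numbered 1 and 2 are paired.

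The named genes were, in each role, the members with the largest positive and negative log2 fold change, MCM2, CDC6, PCNA, RRM2, CCNE1, E2F1 and UHRF1 whatever their values, and the extremes of each accompanying list. ORC6, POLD3, RFC2, CDT1, TK1, CCNE2, MCM10, POLA1, GINS4, LIG1, POLD1, CDKN1A and CCNA2 were singled out after their values were seen. The members, lists and rules were chosen with earlier results of these data known. The labels do not say that replicates are separate cultures grown independently, so p-values measure the spread between these samples. Within groups, the closest libraries differed at a chi-square of 5.4 per degree of freedom, more than sampling noise, and each was counted as 1 replicate. Exon lengths and GC content came from GENCODE 29. Scripts were tested on simulated counts with 200 changed genes, in which both groups shared the same replicate effects. With 2-fold changes the fit without the block recovered 132 of 200 with 0 false calls.

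In the table's coordinates 5 members (GINS2, RFC4, RPA3, TYMS and CCNE2) overlap a gene on the opposite strand with at least 5% of their counts. Reads of the partners cannot be told apart if counting ignored strand.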

Additional observations from a re-analysis of the deposited data

How the results depend on the processing

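Of 21 alternatives that bear on the count, 20 called 0 of the 44 DNA replication genes, as in the fit given above, and the blocked fit without replicate 3 called 3. Over all genes the count was 0 with RLE, upper-quartile and total-count scaling, the filter at a mean of 10 counts, limma-voom, the non-robust fit and thinned counts. The replicate block gave 22 (and 0 of the 44 members), DESeq2 gave 27 and dropping the filter 12. It was 111 in replicates 1 and 2 alone and 35 with a term for replicate 3. Across the 9 fits that left out a library, or a replicate number under the block, it ran from 0 to 912, with 15 without copper replicate 3 and 74, 77 and 912 without numbers 1, 2 and 3 under the block. The counts of members called there ran from 0 to 3. The blocked fits with a number left out were chosen after seeing the data. The median log2 fold change of the 44 ran from -0.00767 (without control replicate 3) to 0.0624 (without control replicate 1) in those 9 fits and was 0.0254 with the replicate block. Scaling moved the median over all genes to 0.0325 at most. Of 968 results for single members, 875 kept direction and call, 3 were stronger and 90 reversed, none of them called. The genes that reversed were within 0.110 of 0 in the fit given above. Signs changed in replicates 1 and 2 alone for CCNE2 (0.0511), CDT1 (-0.0933), LIG1 (-0.0213), MCM4 (0.00486), MCM5 (-0.0336), MCM6 (0.00425), POLA1 (0.0641), POLD2 (-0.0503), RFC4 (-0.00364), RRM1 (0.0354), UHRF1 (0.00163). Signs changed with total counts for MCM3 (0.0226), MCM6 (0.0201), POLA1 (0.00327), POLD1 (0.0164), RRM1 (0.0242). Signs changed with upper-quartile scaling for MCM3 (0.0179), MCM6 (0.0144), POLD1 (0.0148), RRM1 (0.0185). Signs changed with thinned counts for LIG1 (-0.00709), MCM3 (0.00751). Signs changed with RLE scaling for RFC5 (-0.00191). Signs changed with no filter for RFC5 (-0.0195). Signs changed with DESeq2 for RFC5 (-0.00241). Signs changed with limma-voom for RFC5 (-0.000583). Signs changed with a term for replicate 3 for RFC5 (-0.000885). Over the same 9 fits the values ran, CCNE2 from -0.286 to 0.253, CDC6 from -0.0468 to 0.241, CDT1 from -0.153 to 0.226, E2F1 from -0.101 to 0.0260, LIG1 from -0.193 to 0.194, MCM10 from -0.0996 to 0.228, MCM3 from -0.0559 to 0.0568, MCM4 from -0.101 to 0.0293, MCM5 from -0.0320 to 0.123, MCM6 from -0.0718 to 0.0566, POLA1 from -0.148 to 0.158, POLD1 from -0.153 to 0.0678, POLD2 from -0.0502 to 0.135, POLE2 from -0.0130 to 0.0983, PRIM1 from -0.00625 to 0.213, PRIM2 from -0.0450 to 0.157, RFC3 from -0.112 to 0.145, RFC4 from -0.0520 to 0.0754, RFC5 from -0.0513 to 0.0431, RPA1 from -0.0151 to 0.0752, RRM1 from -0.0376 to 0.0497, TYMS from -0.149 to 0.0209, UHRF1 from -0.149 to 0.0454. What caused these changes was not tested. The member with the fewest counts, CCNE1, had 95 or more in each library. The 95% half-widths of the 44 ran from 0.199 to 0.814 on the log2 scale, and what set their width was not tested.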

Other observations

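Genes of mitosis, on a list written with earlier results of these data known, had mostly negative values. Of 23 genes 22 were tested, 20 had a negative log2 fold change, and the median was -0.22, beside 0.03 for the DNA replication genes and 0.01 for all tested genes. The groups did not overlap, with copper lower, for 12 of the 22 (beside 5.35% of all tested genes), against 0 of the 44 DNA replication genes. EdgeR called 0 of the 22, with the block as well as in its absence. An unadjusted p under 0.05 was found for 7 of the 22 without the block, all lower (1.59% of all tested genes), and for 12 with it, all lower (4.24%). CENPF, a kinetochore protein, had the most negative value, at 599, 602 and 345 CPM in copper and 736, 709 and 682 in control (-0.46, SE 0.21). CCNA2, cyclin A2, was at 164, 156 and 123 CPM in copper and 206, 198 and 199 in control (-0.44, SE 0.12). NEK2, a centrosomal kinase, had the most positive value, 0.04. The median was -0.19, -0.14 and -0.34 in replicates 1, 2 and 3. In the 18 mitosis promoters found, CCAAT was present in 16 (88.9%) and the element TTTGAA or TTCGAA in 8 (44.4%), against 35.4% and 9.77% of promoters of tested genes. The latter element was present in 2 of the 37 promoters of DNA replication genes (5.41%). The E2F forms were found in 2 of the 18 mitosis promoters (11.1%), against 4.51% of promoters of tested genes. The difference between the lists was not tested.

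All 14 genes of a list of p53 targets had positive log2 fold changes, with a median of 0.22, and edgeR called 0 of them in either fit. An unadjusted p under 0.05 in edgeR was found for 3 of the 14 without the block, all higher, beside 249 of all 12944 tested genes in that direction. With the block it was found for 5 of the 14, all higher, beside 4.16% of all tested genes in that direction. The groups did not overlap for 4 of the 14, all higher, beside 5.45% of all tested genes. CDKN1A, which encodes the CDK inhibitor p21, was at 219, 208 and 212 CPM in copper and 165, 151 and 158 in control, a log2 fold change of 0.43 (SE 0.09, edgeR adjusted p 0.71 without and 0.134 with the block). GDF15, a secreted stress factor, was at 4.94, 7.96 and 9.93 CPM in copper and 2.78, 3.77 and 4.93 in control (0.98, SE 0.31), with an edgeR adjusted p of 0.0533 with the block. TNFRSF10B, a death receptor, had the lowest value, 0.01 (SE 0.14). RRM2B stands on this list and among the other replication factors.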
